A study of Phormium tenax with 2 samples.

Results

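Transcripts of 3 enzymes of starch and sucrose metabolism were followed in leaves of Phormium tenax (New Zealand flax) under drought. They are invertase (sacA, 5 unigenes), starch phosphorylase (PYG, 1 unigene) and trehalose 6-phosphate phosphatase (TPP, 2 unigenes). These 8 unigenes were taken by their identifiers out of the 75265 in the expression tables. A unigene is a cluster of transcripts assembled without a reference genome, which stands in for a gene and has no position on a chromosome. The enzyme names come from the study, which selected them on the log2 fold change and FDR between these same libraries. Every difference between the libraries given for them is therefore a description.

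The study sequenced 1 library per condition from leaf blades of plants aged 1 year. The drought library (T01) came from potted plants left unwatered until the soil had dried to the chosen water content and then held there. The control library (T02) came from plants kept at the initial soil moisture. RNA of 3 biological repeats was mixed in equal amounts for each library, so no spread between plants could be measured. No strain or genotype is given in the labels for either group. The tables pair no identifier with a gene name, so leaf marker genes were not checked.

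Sucrose is the sugar that most plants carry from leaves to other organs. Invertase splits it into glucose and fructose, and the name sacA that the study uses for it is that of the bacterial gene. Starch phosphorylase takes glucose units from the ends of starch chains as glucose 1-phosphate, and PYG is the name of the animal enzyme that does the same with glycogen. TPP removes the phosphate of trehalose 6-phosphate to give trehalose. In Arabidopsis, trehalose 6-phosphate is known as a signal that follows the sucrose level.

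The control library held 18540664 estimated reads and the drought library 17744093. The 8 unigenes took 2009 of the former and 9742 of the latter, and all 8 had at least 10 reads over both libraries. Levels are given as the deposited TPM, which is reads per unit of effective length scaled to the same total in each library. Intervals on a TPM value are 95% Poisson intervals of the reads behind it. The log2FC is the log2 ratio of reads, drought over control, after scaling by edgeR's TMM factors and adding 1 read to each count. Its interval is that of the share of a unigene's reads that came from the drought library (exact binomial, Clopper-Pearson, 95%). It was put on the log2 scale with the same factors but without the added read, which matters at low counts. All intervals cover counting error only, and copies of a molecule made by PCR count as separate reads. The sequences of these unigenes were not analysed here.

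The listed invertase unigenes were lower in the drought library, and those of PYG and TPP were higher. The study names only unigenes that it called as changed, so any other unigenes of these enzymes are not in the sums below. The summed level of the 5 sacA unigenes was 101.59 TPM in the control library and 19.51 TPM in the drought library. Summed over their reads (995 control, 163 drought), the log2FC was -2.83 (interval -3.08 to -2.59). The log2 ratio of the summed TPM was -2.38, outside this interval. Summed reads give long unigenes more weight than summed TPM does. The scaling between libraries also differs between TMM and TPM. With total reads as the scaling, the log2FC of the summed sacA reads was -2.54. What each of these adds to the gap was not tested. PYG stood at 12.37 TPM in the control library and 67.01 TPM in the drought library. The summed TPP level was 13.55 TPM in the control library and 160.75 TPM in the drought library, with a log2FC of 3.66 (interval 3.53 to 3.81). In leaf RNA, fewer cells of a type and less RNA per cell cannot be told apart.

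**Figure D1:**
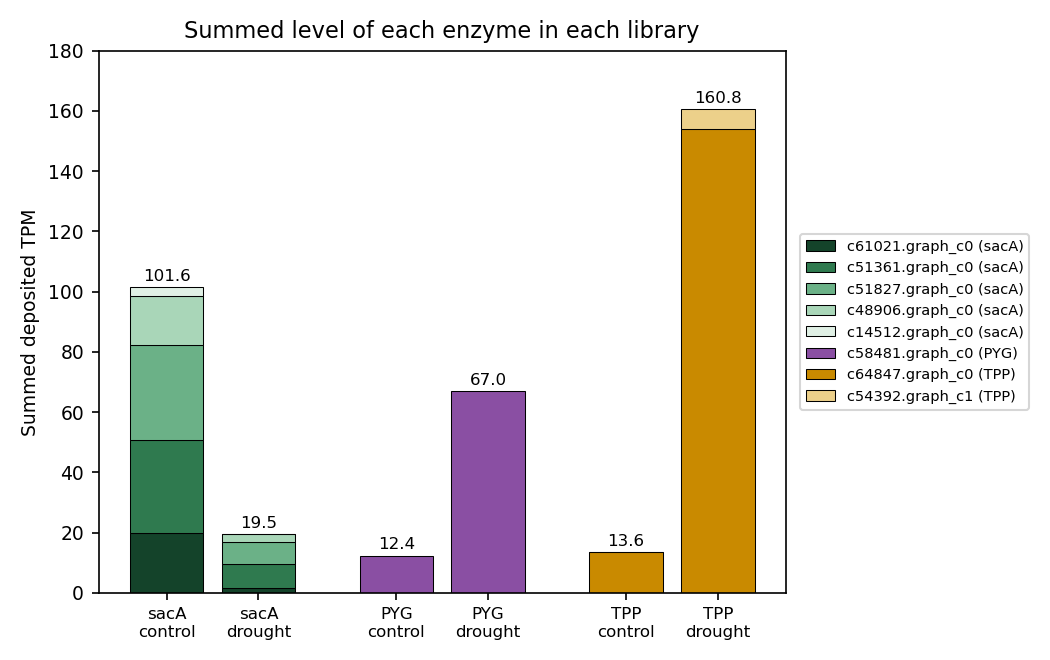
Summed deposited TPM (vertical axis) of the sacA, PYG and TPP unigenes in the control and drought libraries, with 1 segment per unigene and 1 library per bar. The sacA bar is the tallest of the control library at 101.59 TPM, and the TPP bar is the tallest of the drought library at 160.75 TPM.

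Among the sacA unigenes, c61021.graph_c0 had the most reads and the lowest log2FC among those with reads in both libraries. It had 452 reads and 19.73 TPM in the control library and 34 reads and 1.42 TPM in the drought library. Its log2FC was -3.91 (interval -4.50 to -3.45), or 15.1-fold lower. Its length, 1533 bp in the drought table, is the greatest of the 5.

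The unigenes c51361.graph_c0 (644 bp) and c51827.graph_c0 were the most abundant sacA unigenes per unit of length. c51361.graph_c0 had 284 control reads (30.94 TPM) and 75 drought reads (8.03 TPM), with a log2FC of -2.13 (interval -2.53 to -1.77). c51827.graph_c0 had 177 control reads (31.62 TPM) and 44 drought reads (7.29 TPM), and its log2FC was -2.20 (interval -2.74 to -1.75). These intervals include the study's threshold of -2, and these are the members closest to it. With total reads as the scaling the values were -1.84 and -1.92, and c51361.graph_c0 was at -1.93 from TPM.

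The remaining sacA unigenes had fewer reads. c48906.graph_c0 (295 bp) had 57 control reads (16.14 TPM) and 10 drought reads (2.77 TPM). Its log2FC of -2.61 has an interval of -3.87 to -1.75, which also includes -2. c14512.graph_c0 (565 bp) had 25 control reads (3.16 TPM) and 0 drought reads. A count of 0 is set at a floor of 3 reads (a one-sided 95% limit), or 0.373 TPM in that library. In TMM-scaled reads c14512.graph_c0 was at least 9.73-fold lower against this floor. The fold would differ in TPM or with another scaling. Such a bound leaves out the counting error of the 25 control reads. The two-sided Poisson interval of 0 reads reaches 0.458 TPM. Of the 20477 unigenes with at least 20 control reads, 1.46% had 0 drought reads.

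The makeup of the reads of the 5 listed sacA unigenes also differed between the libraries. This comparison is made within each library and does not depend on the scaling between them. c61021.graph_c0 held 45.4% of the 995 sacA reads in the control library (exact interval 42.3 to 48.6%) and 20.9% of the 163 in the drought library (14.9 to 27.9%). The share of c51361.graph_c0 was 28.5% in the control library (25.8 to 31.5%) and 46.0% in the drought library (38.2 to 54.0%). For both unigenes the intervals of the libraries do not overlap. For c51827.graph_c0 they nearly meet, at 17.8% (15.5 to 20.3%) and 27.0% (20.4 to 34.5%). The shares of c48906.graph_c0, 5.73% and 6.13%, differed by less than counting error. For c14512.graph_c0 the intervals overlap, at 2.51% in the control library (1.63 to 3.69%) and 0% in the drought library (0 to 2.24%). Counted per length, as a share of the summed TPM, c61021.graph_c0 held 19.4% in the control library and 7.28% in the drought library. By this measure c51361.graph_c0 held 30.5% in the control library and 41.2% in the drought library, a smaller shift than in reads.

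PYG (c58481.graph_c0, 3003 bp) is the longest of the 8 unigenes and holds 1 transcript. It had 586 reads in the control library and 3227 in the drought library. The log2FC was 2.24 (interval 2.11 to 2.37), or 4.71-fold higher. With upper-quartile factors it was 2.02 and with total reads 2.52, so it stayed above 2 but moved by more than its counting interval.

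Nearly all TPP reads belonged to c64847.graph_c0, a unigene of 13 transcripts. It had 428 control reads (13.55 TPM) and 6310 drought reads (153.98 TPM). Its log2FC was 3.66 (interval 3.52 to 3.80), or 12.6-fold higher, and 3.50 from TPM. The other TPP unigene, c54392.graph_c1 (453 bp), had 0 control reads and 42 drought reads (6.77 TPM). The floor of 3 reads is 0.492 TPM in the control library (two-sided Poisson limit 0.606 TPM). In TMM-scaled reads the unigene was at least 12.0-fold higher against this floor, again without the counting error of the 42 drought reads. Of the 22857 unigenes with at least 20 drought reads, 3.83% had 0 control reads. Within the TPP reads of the drought library, c54392.graph_c1 made up 0.66%, or 4.21% of the summed TPM.

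The Trinity component of c54392.graph_c1 holds a further unigene, c54392.graph_c0, to which the study gives no enzyme name. It was also higher in the drought library, with 4 control reads (1.12 TPM) and 40 drought reads (10 TPM). Its log2FC was 2.84 with a wide interval of 1.63 to 5.04. No other component of the 8 unigenes holds a further unigene.

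The order of the levels differed between the libraries. In the control library c51827.graph_c0 and c51361.graph_c0 stood highest, with overlapping intervals of 27.1 to 36.6 and 27.4 to 34.8 TPM. c61021.graph_c0 (19.73 TPM), c48906.graph_c0 (16.14 TPM), c64847.graph_c0 (13.55 TPM) and c58481.graph_c0 (12.37 TPM) followed, and each of these overlapped its neighbour in the order. In the drought library c64847.graph_c0 stood highest (150.2 to 157.8 TPM) and c58481.graph_c0 next (64.7 to 69.4 TPM), apart from each other and from all others. Below them c51361.graph_c0, c51827.graph_c0, c54392.graph_c1, c48906.graph_c0 and c61021.graph_c0 (in this order) each overlapped its neighbour. Of the unigenes with reads in the control library, 84.2% had a TPM at or below that of c61021.graph_c0, and in the drought library 22.0% did. For c64847.graph_c0 the share was 79.5% in the control library and 98.5% in the drought library.

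**Figure D2:**
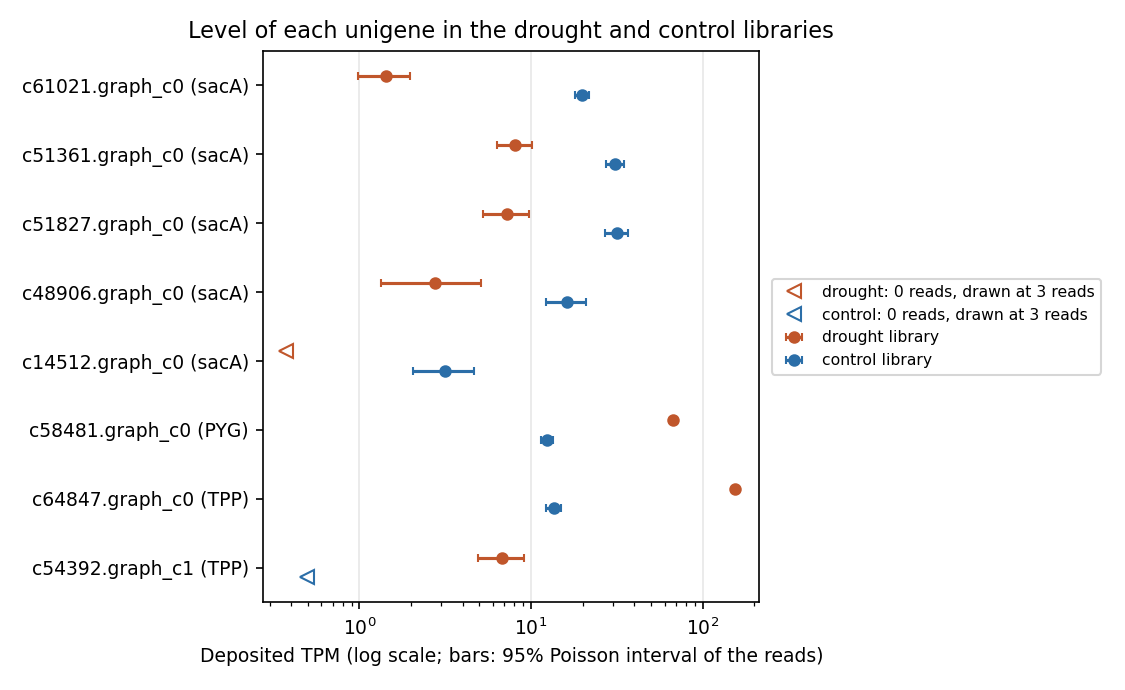
Deposited TPM (horizontal axis, log scale) of each unigene in the drought and control libraries, with 95% Poisson intervals of the reads and open triangles at the level of 3 reads where a library had 0. The drought points of the 5 sacA unigenes lie below their control points, and those of PYG and both TPP unigenes lie above, with no overlap of the intervals.

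Over all 39163 unigenes with at least 10 reads, 8.5% had a log2FC of -2 or lower and 17.7% had one of 2 or higher, and the median was 0.14. Among the 16503 with at least 100 reads these shares were 4.85% and 7.22%. All 5 sacA unigenes lay at or below -2, with a median of -2.61, also when c14512.graph_c0 is set at its bound. PYG and both TPP unigenes lay above 2. The rule that chose the members used this contrast, so nothing is read from these counts. Of the 33930 unigenes that also had reads in each library, 2.42% had their whole interval at or below -2 and 3.3% at or above 2. The sacA unigene with its whole interval past -2 was c61021.graph_c0, and c58481.graph_c0 and c64847.graph_c0 had theirs above 2. In the order of log2FC, the interval of c61021.graph_c0 lay below those of c51361.graph_c0 and c51827.graph_c0 but overlapped that of c48906.graph_c0. The interval of c64847.graph_c0 lay above that of c58481.graph_c0.

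**Figure D3:**
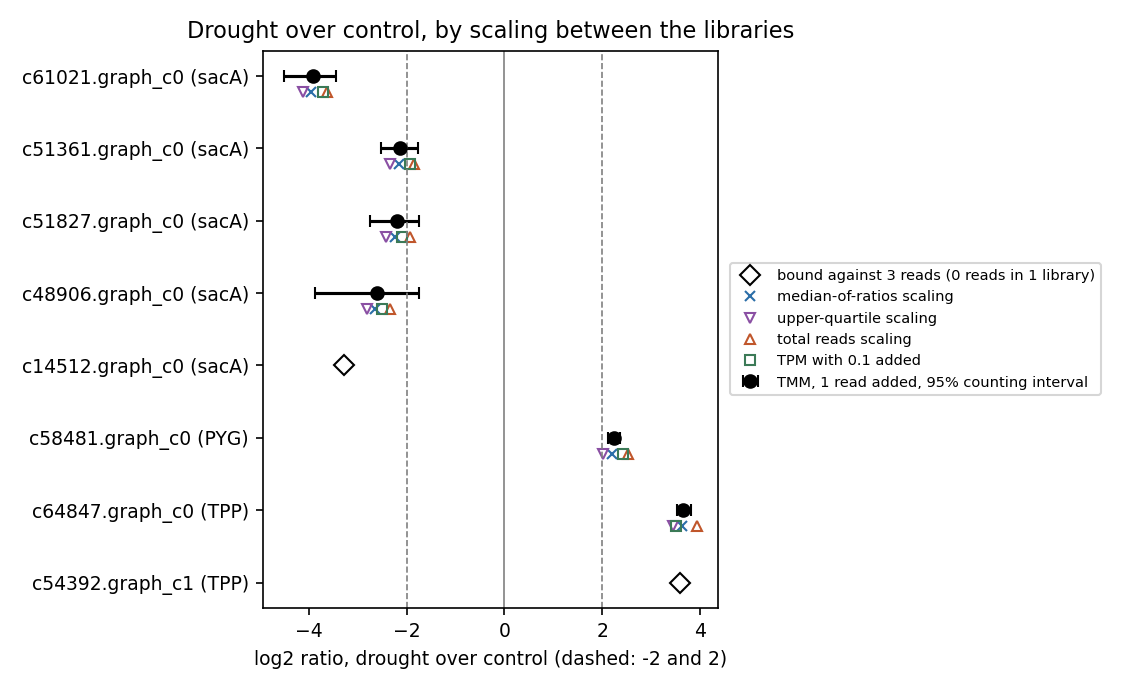
Log2 ratio of drought over control for each unigene (horizontal axis), with the TMM value and its 95% counting interval in black, other scalings in colour, and a diamond at the bound where a library had 0 reads. All values of a unigene lie on 1 side of 0, and those of c51361.graph_c0 and c51827.graph_c0 fall on both sides of the dashed line at -2.

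**Figure D4:**
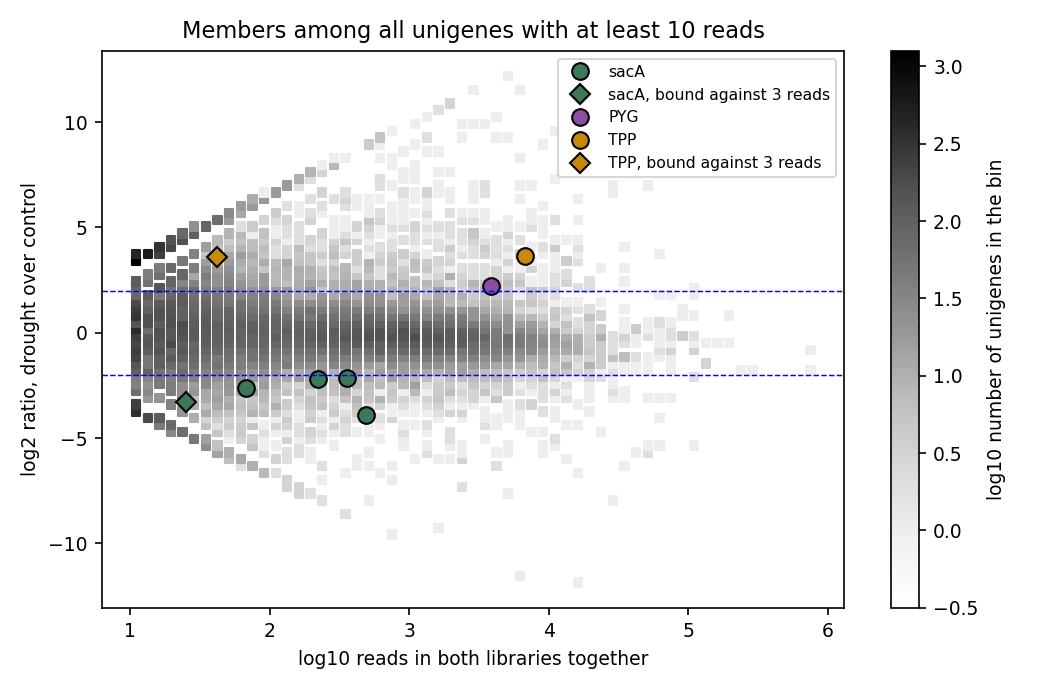
Log2 ratio of drought over control (vertical axis) against the log10 of the reads in both libraries together, with all 39163 unigenes with at least 10 reads as grey bins and the 8 unigenes in colour. The members lie outside the dashed lines at -2 and 2, and the diamonds are bounds against 3 reads, at -3.28 for c14512.graph_c0 and 3.58 for c54392.graph_c1.

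Set against each other within a library, the listed unigenes of the enzymes stood in a different order in each condition. The sacA unigenes entered with a log2FC of -2 or lower and the others with one of 2 or higher. A large shift in the ratios below was thus fixed by the choice. The PYG level was 0.122 of the summed sacA level in the control library (interval 0.11 to 0.135) and 3.43 times it in the drought library (2.93 to 4.04). TPP stood at 0.133 of the summed sacA level in the control library (0.119 to 0.15) and at 8.24 times it in the drought library (7.05 to 9.68). TPP and PYG were close in the control library, with a TPM ratio of 1.09, and this ratio was 2.4 in the drought library. These ratios do not depend on the scaling between libraries. They do depend on the sacA sum, which would count a gene more than once if short unigenes were pieces of 1 transcript. That was not tested. The sacA unigenes of 295 to 644 bp are shorter than the coding sequence of a plant invertase.

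The lengths and fractions in the tables describe how the reads were assigned. The length of a unigene with several transcripts was read here as a mean over them that follows where the reads fall, which no source states. Of the 8 unigenes, 5 hold 1 transcript, as 50.8% of all unigenes with at least 10 reads do. The other 3 hold several, and all 3 had a greater length in the drought table. The length of c64847.graph_c0 was 2026.14 bp in the control table and 2566.87 bp in the drought table, a ratio of 1.27. Among the 9127 unigenes with several transcripts and at least 100 reads in each library, 5.06% had a ratio that large in either direction. For c61021.graph_c0 (2 transcripts) the lengths were 1492.29 bp in the control table and 1533 bp in the drought table, and for c51827.graph_c0 (5 transcripts) 422.67 and 444.08 bp. Over all unigenes with several transcripts and at least 10 reads, 92.0% differed in length between the tables and 45.8% were longer in the drought table. The counts of 5 of the 8 unigenes were exactly whole in both libraries at the 2 decimals the tables give, beside 69.9% of all unigenes with at least 10 reads. PYG had 3226.82 and 586.02 estimated reads although it holds 1 transcript.

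The study lists 10 other unigenes under starch and sucrose metabolism, which act mainly on UDP-sugars and pectin. Of these, 8 had a log2FC of 2 or higher and 2 had one of -2 or lower. Over all unigenes with at least 10 reads, 17.7% were at 2 or higher and 8.5% at -2 or lower. The highest of the 10 was c54495.graph_c0, with 1366 drought reads against 2 in the control, and a log2FC of 8.64 (interval 7.34 to 12.2). The lowest was c37104.graph_c0, with 42 control reads and 0 drought reads, at least 16.3-fold lower against 3 reads in TMM-scaled reads. These 10 were chosen in the same way as the members, so nothing is read from the counts.

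With 2 libraries, likeness between unigenes rests on their level in each. It was measured as the distance of log2(TPM + 0.1) over both libraries. The unigenes nearest to c61021.graph_c0 were c39667.graph_c0 (19.26 TPM in the control library, 1.4 TPM in the drought library, from 54 and 4 reads) and c60394.graph_c0 (18.6 and 1.33 TPM, from 390 and 32 reads). With 4 drought reads, the place of the former is uncertain. PYG was nearest to c56830.graph_c0 (12.09 TPM control, 68.0 TPM drought) and c53873.graph_c0 (12.07 and 65.83 TPM). For c64847.graph_c0 they were c63157.graph_c0 (14.12 TPM control, 149.3 TPM drought) and c60877.graph_c2 (15.02 and 159.97 TPM). Within a distance of 0.5 lay 31 unigenes for c61021.graph_c0, 85 for PYG and 17 for c64847.graph_c0. The tables name none of these.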

How the data were processed

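Leaf RNA was sequenced from both ends as 1 drought and 1 control library. The authors filtered the reads, assembled them jointly with Trinity and deposited a table for each library. The submitters' processing notes name Bowtie 0.12.2, Cufflinks and the mouse build mm8, with no role, and which program counted the reads is not stated in any source used. The deposited expected counts are estimated reads per unigene without normalization. The deposited TPM and FPKM values were adjusted by the authors for library size and effective length. TPM recomputed from the counts differed from the deposited values of the members by 0.109% at most.

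Counts were rounded to whole numbers. Scaling factors came from edgeR 4.0.16 (TMM as the main choice and upper quartile as another) under R 4.3.3, and median-of-ratios factors came from DESeq2 1.42.0. All else used Python 3.11.15 with SciPy 1.17.1, and the computation was tested on simulated data. With 1 library per condition no test was run, and a log2FC of 2 in either direction, the study's threshold, served for counts. The study's EBSeq model and FDR were not applied. The named unigenes are the 8 members, other unigenes of their Trinity components, the other unigenes the study lists under starch and sucrose metabolism (the highest and lowest by name), and the 2 nearest to the member with most reads of each enzyme. The members and lists were chosen with earlier results of these data known. Alternatives were other scalings, 0.01 or 5 added reads, TPM and FPKM with 0.1 added, other read and length minimums, other thresholds, and leaving unigenes out of the sums.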

Additional observations from a re-analysis of the deposited data

How the results depend on the processing

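No paired analysis was possible because each condition has 1 library. All 8 unigenes kept the direction of their log2FC under the 4 scalings, the added reads of 0.01 and 5, and the TPM and FPKM values. The summed sacA log2FC was -2.54 with total reads, -2.37 from TPM and -2.29 from FPKM. It was -2.29 without c61021.graph_c0 and -3.22 without c51361.graph_c0. The summed TPP log2FC was 3.45 with upper-quartile factors, 3.95 with total reads and 5.32 without c64847.graph_c0, a value that rests on 0 control reads and 1 added read. PYG was at 2.02 with upper-quartile factors, 2.52 with total reads, 2.43 from TPM and 2.51 from FPKM. Before the added read, the shift of a log2 ratio against TMM was 0.287 for total reads, -0.214 for upper-quartile factors and -0.031 for median-of-ratios. With the added read, low counts moved less, as c14512.graph_c0 did from -4.81 to -4.67 with total reads.

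Of the 5 sacA unigenes, 3 were at or below -2 with total reads as the scaling, 4 from TPM or FPKM, and 2 at a threshold of 3. All 3 that have at least 100 reads were, and all 4 of at least 300 bp. By the whole interval 1 was, of the 4 with reads in both libraries. Of the 3 PYG and TPP unigenes, 2 were past a threshold of 3, and the 2 with at least 100 reads, which are also those with reads in both libraries, were past 2 by either rule. The share of all unigenes lower at the threshold was 7.29% with total reads as the scaling, 7.9% from TPM and 7.52% from FPKM. It was 7.83% for those of at least 300 bp, 4.85% with at least 100 reads and 17.5% with at least 1 read. At a threshold of 3 it was 5.04%, and at a threshold of 1 it was 18.9%. With 5 reads added it was 4.51%, and by the whole interval 2.42%. The share higher was 7.39% with 5 reads added, 27.6% with at least 1 read and 7.22% with at least 100 reads. It was 28.7% at a threshold of 1, 12.7% at a threshold of 3 and 3.3% by the whole interval.

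Counted in reads, not per length, PYG was 0.589 of the sacA sum in the control library and 19.8 times it in the drought library. In the control library the TPM ratio was 0.151 without c61021.graph_c0, 0.175 without c51361.graph_c0, 0.177 without c51827.graph_c0 and 0.145 without c48906.graph_c0. In the drought library it was 5.84 without c51361.graph_c0 and 5.48 without c51827.graph_c0. The 10 drought reads of c48906.graph_c0 and the 0 of c14512.graph_c0 limit what can be said of these unigenes, and variation between plants is in none of the intervals.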
